A study of Mus musculus and Homo sapiens with 4 samples.

Results

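The genes described here are CDCA7L, its paralog CDCA7, and 8 genes whose products take part in placing, copying or removing methyl groups on DNA: HELLS, UHRF1, DNMT1, DNMT3A, DNMT3B, TET1, TET2 and TET3. They were taken as every probe set whose platform symbol was one of these 10 names in either species, which gave 25 probe sets for 10 of 18193 named genes in mouse and 22 probe sets for 10 of 19773 in human. CDCA7L was chosen because of its difference in A375M cells, so that difference is given as a description, and the other 9 genes were chosen by function. The study placed 1 array in each of 4 groups: LM8, a mouse osteosarcoma line, and A375M, a human melanoma line, each stably infected with the retroviral vector pSIREN-RetroQ carrying either a control insert or a hairpin against Merm1 (Wbscr22), now named BUD23, which encodes a methyltransferase of small-subunit ribosomal RNA. The control lines were therefore infected too, with the control version of the same vector. The labels give 1 hairpin vector for each species and do not say whether a line was a clone or a pool. Values are RMA expression values on the log2 scale, and each difference is knock-down minus control within a line. Where 2 readings are given for a probe set, the control array comes first. With 1 array a group, no difference has an error between cultures or a p-value. The species were measured on arrays of unlike design, so no level was set against one of the other species.

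DNA methylation in mammals lies mostly on cytosines of CG dinucleotides. DNMT3A and DNMT3B place new methyl groups. DNMT1 copies the pattern onto the new strand after replication, brought there by UHRF1, which binds hemimethylated CG sites. HELLS is a chromatin remodeler that CDCA7 recruits to nucleosomes, and inherited loss of CDCA7, HELLS or DNMT3B leaves repeats near centromeres with too little methylation. CDCA7L shares the zinc finger region of CDCA7, binds MYC, and is also known as a repressor of the monoamine oxidase gene MAOA. TET1, TET2 and TET3 oxidise methylcytosine, which starts its removal. No methylation was measured here, and every value is a transcript level.

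The windows around the start of the mouse genes show how many CG dinucleotides these genes carry themselves. RefSeq windows on GRCm38.p6, each with 250 bases before and 50 after a transcript start, were found for all 10 mouse members, 15 windows in all, and 14 of the 15 held more CG dinucleotides than the median of 7 over 32851 windows. The range was from 2, in 1 of 3 Dnmt1 windows, to 57, in Tet2. The Cdca7l window held 46, more than 98.4% of all windows, and the Cdca7 window 26, more than 83.1%. No human promoter was analysed, so the A375M differences are not set beside these mouse windows. The bases upstream of the Cdca7l and Cdca7 starts are shown as a description of these paralogs. They are printed 5′ to 3′ on the gene's strand, which is the plus strand for both, at chr12:117843611-117843860 for Cdca7l and chr2:72475969-72476218 for Cdca7, and capitals mark CG dinucleotides, 38 of them in Cdca7l and 21 in Cdca7.
Cdca7l: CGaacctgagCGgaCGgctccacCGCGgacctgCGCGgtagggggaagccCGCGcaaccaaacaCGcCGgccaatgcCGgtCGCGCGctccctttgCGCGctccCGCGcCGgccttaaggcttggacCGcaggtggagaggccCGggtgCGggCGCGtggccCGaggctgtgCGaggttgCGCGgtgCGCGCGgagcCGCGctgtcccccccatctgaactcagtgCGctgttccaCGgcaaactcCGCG
Cdca7: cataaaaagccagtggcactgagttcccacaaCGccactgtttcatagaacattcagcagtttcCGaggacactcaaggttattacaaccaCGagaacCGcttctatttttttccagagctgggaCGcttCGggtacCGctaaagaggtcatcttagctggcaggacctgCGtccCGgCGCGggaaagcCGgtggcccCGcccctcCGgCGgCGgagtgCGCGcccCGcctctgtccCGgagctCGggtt
In the whole windows of 300 bases, 7 words were searched on both strands. The E2F-type words TTTGGCGC, TTTCCCGC, TTTGGCGG and TTTCCCGG, which share letters with one another, were present in 3 of the 15 windows, those of Cdca7 and Hells (TTTCCCGC) and 1 of Dnmt1 (TTTGGCGC), against 3.32% of all windows with at least 1 of them. The E-box CACGTG was in 1 window, of Dnmt3a (7.15% of all), CCAAT in 6 windows of 4 genes, Cdca7l among them (37.4% of all), and GGGCGG in 12 windows of 9 genes, all members but Cdca7l (35.7% of all). A match is a description of the letters only.

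Before the members, the arrays were checked against their labels. The target gene read 10.61 (control) and 8.48 (knock-down) in LM8 and, on its bright human probe set, 10.70 and 8.38 in A375M, which fits the labels of all 4 arrays. The osteoblast markers found on the mouse array, 5 of 8, all lay above the array median in both LM8 arrays, and the melanocyte markers found on the human array, 7 of 8, did so in both A375M arrays, although 5 of 6 fibroblast markers did so as well in each line. Of the other markers found, 4 of 7 osteoblast, 4 of 6 leukocyte, 3 of 5 endothelial and 1 of 5 keratinocyte did so in A375M. In LM8 it was 3 of 8 melanocyte, 1 of 7 leukocyte, 2 of 5 endothelial and 1 of 4 keratinocyte markers. Lying above the median therefore does not by itself mark a cell type. Between the A375M arrays 45.4% of all probe sets were identical to every digit, against 0.705% in LM8, and 67.4% of human control values recurred in another probe set. An exact 0 in A375M is therefore common and does not measure how alike the cultures were.

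CDCA7L was measured by 1 probe set in each species. In A375M it read 4.67 without the hairpin and 7.09 with it. The knock-down array was the high one, by 2.42 on the log2 scale or 5.34-fold, the highest difference among all 54613 non-control human probe sets. The control value lay at the 50.3rd percentile of its array, just above the median of 4.64, where an array gives little signal over background, and the knock-down value at the 75.9th. The control value occurred in that probe set alone, whereas the knock-down value of 7.09 was shared, digit for digit, by 20 probe sets of that array, itself included. The name of this probe set ends in _s_at, which marks probes that match several transcripts, so without such probe sets CDCA7L had no value in A375M. With 32 added to the linear values, which damps low signals, the difference was 1.55.

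In LM8, Cdca7l read 8.99 and 8.97. Both values lay well up the array, at the 82.6th and 82.3rd percentile, and differed by -0.021. That is less than the spread between probe sets of the same gene, for which the median SD over genes was 0.12 on the LM8 arrays and 0.071 on the A375M arrays, and that spread leaves out the variation between cultures. The A375M spread also takes in the many differences of exactly 0, which can make it too small. The A375M difference exceeded the LM8 difference by 2.44, and with 1 array a group this was not tested.

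**Figure D1:**
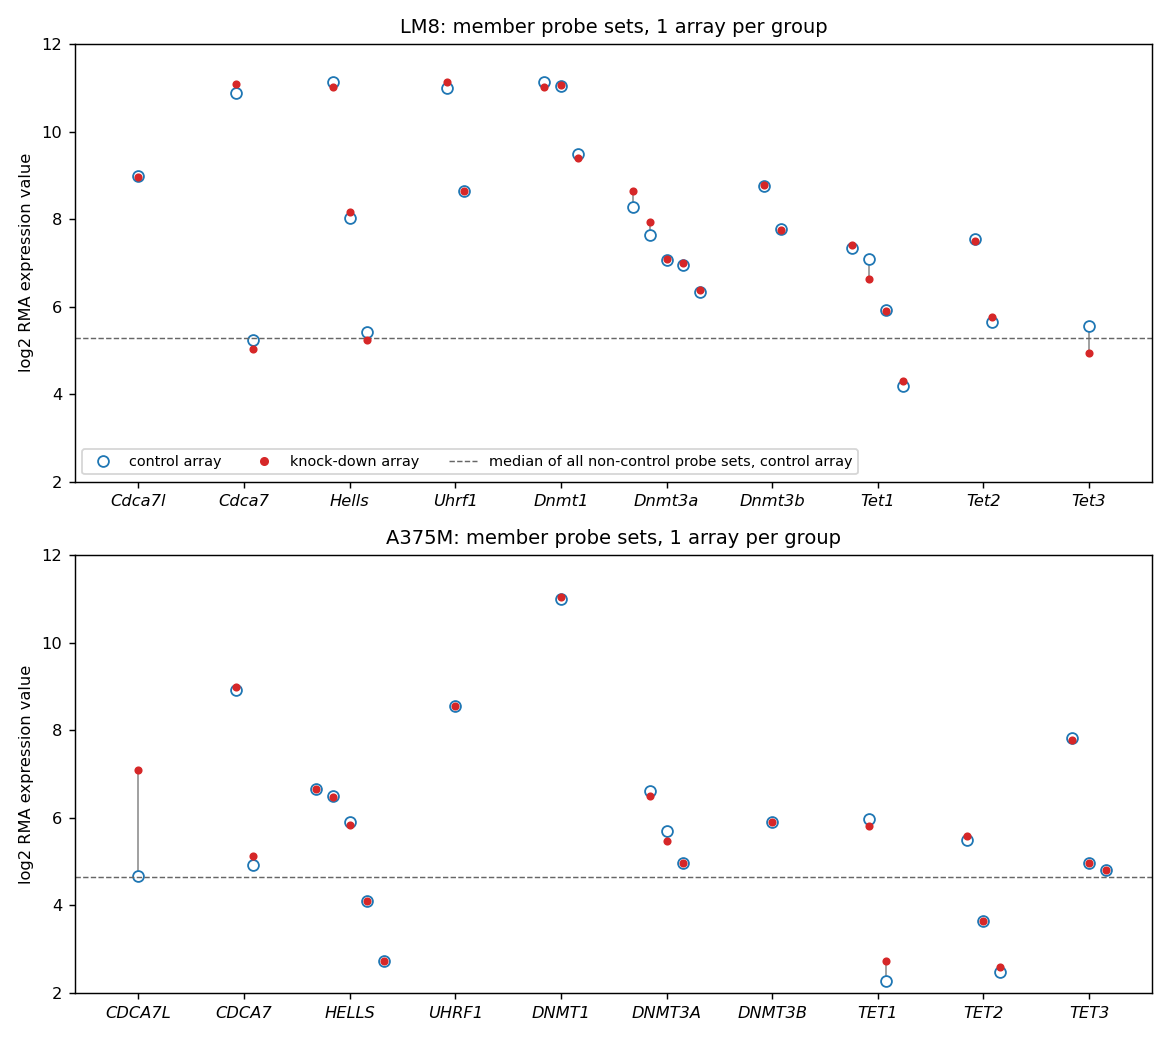
Log2 RMA expression value (vertical axis) of every probe set of the 10 members in LM8 (top) and A375M (bottom), with open circles for the control array, filled circles for the knock-down array and a line joining the pair. The dashed line is the median of the control array. CDCA7L in A375M goes from 4.67 to 7.09, while most pairs overlap.

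CDCA7, the paralog, had differences of at most 0.22 in size. Its bright human probe set read 8.93 and 8.99, and its dimmer probe set 4.92 and 5.13, differences of 0.058 and 0.21. In LM8 the bright Cdca7 probe set read 10.89 and 11.08, a difference of 0.19, and the other, below the array median, 5.25 and 5.02, a difference of -0.22. The knock-down array was the higher one on 3 of these 4 probe sets, by amounts at most 1.16-fold, and the mean over the mouse probe sets was -0.016.

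HELLS, the remodeler, had differences of both signs in LM8. Its probe sets read 11.14 and 11.01, 8.02 and 8.16, and 5.43 and 5.24, differences of -0.13, 0.14 and -0.18. In A375M the brightest of 5 HELLS probe sets read 6.65 in both arrays, and the next read 6.50 and 6.47. The differences over all 5 ran from -0.077 to 0. The largest in size, in LM8, was 1.14-fold and came from the dimmest mouse probe set. Its control value lay above the array median and its knock-down value below. Those values occurred in 18 probe sets of the control array and 21 of the knock-down array.

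The maintenance pair UHRF1 and DNMT1 lay high on the arrays of both lines. Uhrf1 read 10.99 and 11.13 on its bright mouse probe set, a difference of 0.14, and 8.65 in both arrays on the other, a difference of 0.0068. UHRF1 read 8.56 in both A375M arrays, a value that 10 probe sets of the control array and 17 of the knock-down array shared. Dnmt1 was measured by 3 mouse probe sets, which read 11.14 and 11.03, 11.04 and 11.07, and 9.49 and 9.39. The pair of lower readings in the knock-down array, -0.11 and -0.095, came from probe sets ending in _x_at, which marks probes shared with other transcripts, and the probe set without that mark differed by 0.031. DNMT1 in A375M read 11.01 and 11.05, a difference of 0.039.

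Among the genes for new methylation, Dnmt3a had its higher reading in the LM8 hairpin line on all 5 of its probe sets. The brightest read 8.28 and 8.64, a difference of 0.36 or 1.28-fold, and the next 7.64 and 7.94, a difference of 0.30. The other 3 differed by 0.017 to 0.066, within the spread between probe sets, so the 5 agree in sign and not in size. With the mean of all 5 the gene differed by 0.16. In A375M, DNMT3A read 6.62 and 6.50 on its brightest probe set and 5.69 and 5.47 on the next, differences of -0.12 and -0.23. The third probe set of DNMT3A read 4.96 in both arrays, and a TET3 probe set had the same value to every digit, as did 248 probe sets of the control array in all. Dnmt3b, the second enzyme of this kind, read 8.76 and 8.79, and 7.77 and 7.74, in LM8, and DNMT3B read 5.91 in both A375M arrays. That DNMT3B value occurred in 66 probe sets of the control array and 33 of the knock-down array.

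The TET genes included the member with the lowest difference in LM8. Tet3 had 1 mouse probe set, which read 5.55 and 4.94, or 1.53-fold lower with the hairpin (a difference of -0.61). The control value lay above the array median of 5.29 and the knock-down value below its median of 5.28, so Tet3 passed the filter on low values only through the control array, where it was high. With 32 added to the linear values the difference was -0.33, and under a filter at the 70th percentile Tet3 was not kept. In A375M the 3 TET3 probe sets read 7.82 and 7.78, 4.96 in both arrays, and 4.80 in both.

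Tet1 had probe sets of both signs in LM8. The brightest read 7.35 and 7.41, a difference of 0.068, and the next, ending in _s_at, 7.09 and 6.63, a difference of -0.46. The other mouse probe sets, at 5.93 and 4.17 in the control array, differed by -0.034 and 0.13. TET1 in A375M read 5.98 and 5.81, a difference of -0.17, and 2.27 and 2.73 on a probe set that lay far below the array median. Tet2 read 7.54 and 7.49, and 5.64 and 5.76, in LM8, differences of -0.049 and 0.12. TET2 in A375M read 5.49 and 5.59 on its only probe set above the median, a difference of 0.097, while the others read 3.64 in both arrays and 2.48 and 2.59.

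For counts, each gene was given the value of its brightest probe set and kept where it lay above the array median in at least 1 array, which held for 10 of 10 members in both lines. In LM8 1 of 10 members, Tet3, differed by at least 1.5-fold in either direction, against 2.47% of 11646 kept genes. This threshold is 0.58 on the log2 scale. Tet3, at -0.61, lay just past it, and the next in size was Dnmt3a at 0.36. At 2-fold 0 of 10 passed, against 0.472%. In A375M 1 of 10, CDCA7L, passed, against 0.748% of 13244 kept genes in either direction and 0.378% higher, and it was also the only member at least 2-fold higher, against 0.0831%; since CDCA7L was chosen on this contrast, nothing is read from that count. The other 9 members lay between -0.17 (TET1) and 0.097 (TET2) in A375M. Both ends rest on a repeated value. The TET1 control value occurred in 77 probe sets of its array, and the TET2 knock-down value in 122 of its array. In LM8 5 of 10 members lay past the median SD between probe sets, against 47.7% of kept genes. In A375M 4 of 10 did so, against 41.1%. The A375M count includes CDCA7L, chosen on its A375M difference. The LM8 count includes Tet3, kept only through the array where it was high. Nothing is therefore read from either count. The median over the members was 0.0065 in LM8 and 0 in A375M, and over all kept genes 0.015 and 0.

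**Figure D2:**
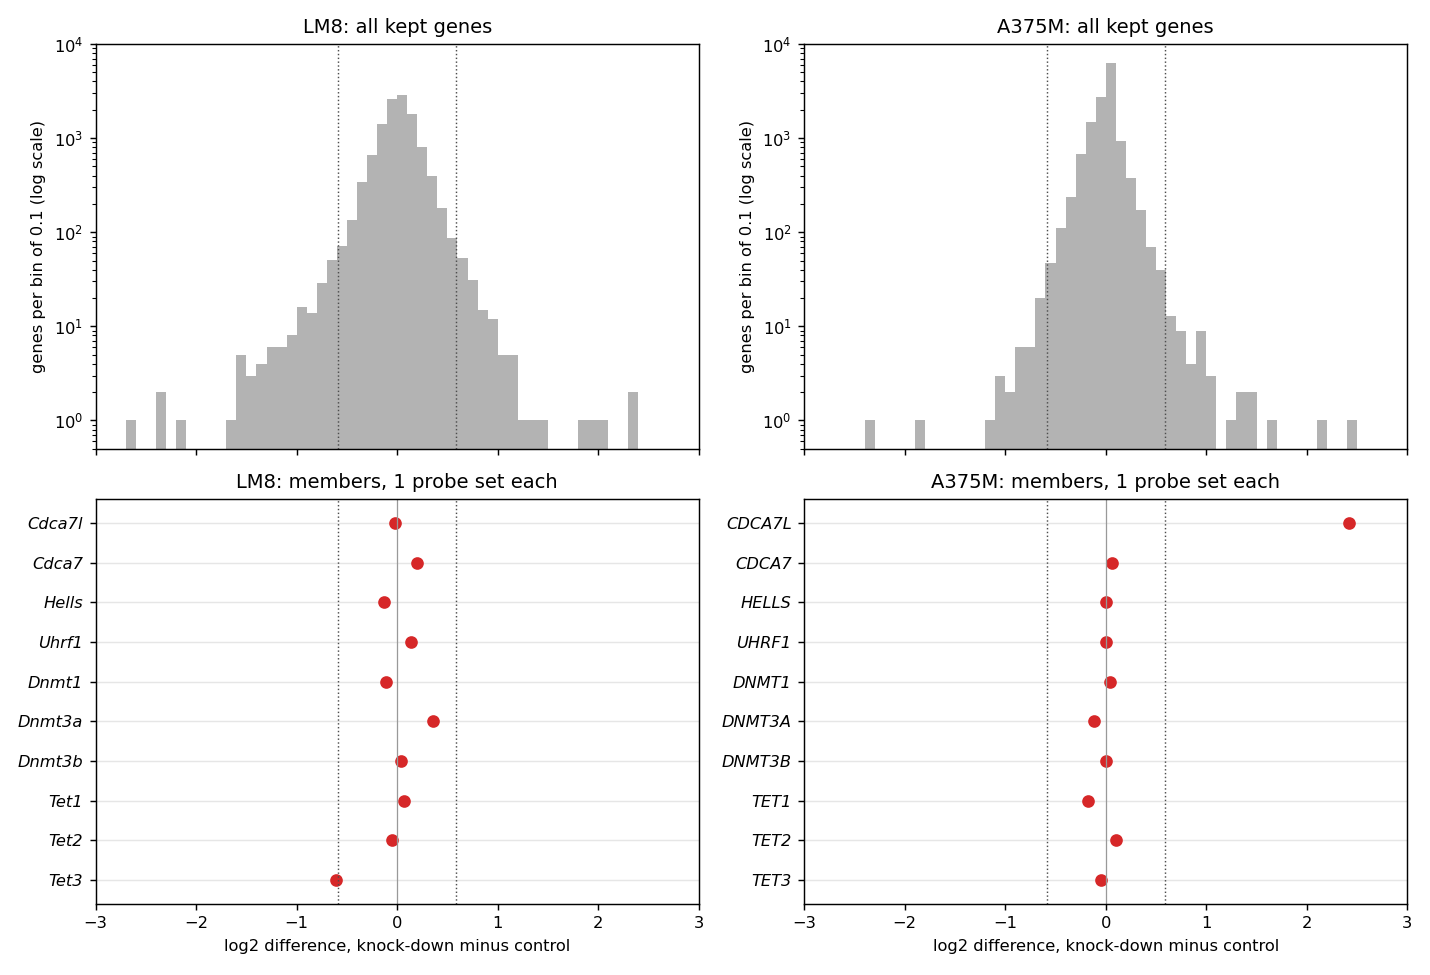
Top, number of kept genes (log axis) by log2 difference, knock-down minus control, in bins of 0.1 for LM8 (left) and A375M (right); bottom, the difference of each member from its brightest probe set. Dotted lines mark 1.5-fold. CDCA7L stands at 2.42 in A375M and at -0.021 in LM8, and Tet3 at -0.61 is the only LM8 member past a dotted line.

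The lines can be combined only by counting 1 mouse line and 1 human line as replicates of each other. A limma fit of the mean of both within-line differences, over 8981 genes kept in both lines with Benjamini-Hochberg adjustment, called 0 of the 9 members other than CDCA7L at an adjusted p under 0.05, against 0.0111% of all genes, and 0 of the 9 had an unadjusted p under 0.05, against 278 of all 8981 genes (3.10%), so that 0 of 9 is near the share of all genes. Tet3 entered this fit although it passed the LM8 filter only through the array where it was high, so its value there is not used as support. Its A375M difference of -0.047 was under the spread between probe sets and was 0.0018 after repeated quantile normalization. CDCA7 was higher in both lines on its brightest probe sets, with a mean difference of 0.13 (SE 0.085, adjusted p = 0.99 in the limma fit). Of the 9 members 2 had the same sign in both lines, 4 had opposite signs and the rest were identical in the A375M arrays. These signs were not counted over all 8981 genes, so nothing is read from them. Several rest on differences under the spread between probe sets. A p that misses the threshold does not show that these genes did not differ.

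The genes with differences nearest to that of CDCA7L in A375M, measured as the distance between log2 differences over 1 pair of arrays, were LIN28B, an inhibitor of let-7 maturation, at 2.16 (3.60 and 5.77), TEX15, a gene of meiotic germ cells, at 1.65 (5.35 in the control array), and DCLK1, a microtubule-associated kinase gene, at 1.45 (3.49 and 4.94). The control values of LIN28B and DCLK1 lay below the array median, so these genes were kept only through the knock-down array, where they were high. In LM8 only Dclk1 was kept, and it read 12.36 and 12.24, a difference of -0.12.

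Related genes were described by 7 lists written with earlier results known, and 1 or no gene of each list was at least 1.5-fold different in either line, where 2.47% of all kept LM8 genes and 0.748% of all kept A375M genes were. Of the readers of methylated DNA and the cofactors of maintenance, 17 were kept in LM8, of which 13 were higher and 4 lower (53.8% of all kept genes were higher), with 0 at least 1.5-fold different and a median of 0.033. Their largest differences were those of the methyl-CpG binding zinc finger gene Zbtb4 (7.12 and 7.53, a difference of 0.41), Mbd1 (0.25, with probe sets from -0.25 to 0.44), Mbd3 (0.13) and Smchd1 (0.11). In A375M, of 18 kept, 6 were higher, 9 lower and 3 identical, with a median of -0.0053. Over all kept A375M genes 29.0% were higher, 40.3% lower and 30.8% identical. UHRF2, the paralog of UHRF1, read 8.56 and 8.42, a difference of -0.14, DNMT3L, the cofactor of new methylation, 4.87 and 5.03, a difference of 0.16, and USP7, which stabilises UHRF1 and DNMT1, and MBD1 differed by -0.080 and -0.079. The A375M median turned positive when quantile normalization was repeated (0.028) and when a loess curve was removed (0.0061).

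Active demethylation and base excision repair genes had lower values with the hairpin for 13 of 17 kept members in LM8 and higher values for 4, with 1 at least 1.5-fold lower and a median of -0.033. Over all kept LM8 genes 46.0% were lower, and 1.31% were at least 1.5-fold lower. Gadd45g, a stress-induced gene linked to demethylation, read 11.32 and 10.68, a difference of -0.65. Neil1, a DNA glycosylase gene, read 5.99 and 5.48, a difference of -0.51. Ogt, whose product binds TET proteins and modifies them with a sugar, read 10.18 and 9.71, a difference of -0.48, and its 4 kept probe sets ran from -0.86 to -0.48. Gadd45a differed by -0.27. When probe sets were averaged within genes, the list median in LM8 was -0.15. In A375M 8 of 19 kept genes were higher, 8 lower and 3 identical, against 29.0%, 40.3% and 30.8% of all kept genes. The list median in A375M was 0. There TDG, the glycosylase gene whose product removes oxidised methylcytosine, read 9.29 and 8.82, a difference of -0.47, with -0.055 on its other kept probe set. XRCC1 differed by -0.23, GADD45A by -0.15 and CXXC4 by 0.26, the last with a control value below the array median.

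Genes linked to the supply or the use of the methyl donor S-adenosylmethionine split evenly in LM8. There 7 of 14 kept genes were higher and 7 lower, with a median of -0.036. The list mixes genes that supply the donor with genes that use it, such as NNMT and SMS. Its counts therefore do not describe donor supply. Shmt2 and Mthfd2, mitochondrial folate enzyme genes, differed by -0.22 and -0.20, and Mat2b and Ahcyl1 by -0.17 and -0.13. In A375M 4 of 15 were higher, 8 lower and 3 identical, against 29.0%, 40.3% and 30.8% of all kept genes. The list median in A375M was -0.041. MTR, the methionine synthase gene, differed by -0.23, CBS by -0.22, NNMT by 0.22 and SMS by -0.15, and 0 of the genes in either line reached 1.5-fold.

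For CDCA7L in particular, the list of its partners and the MYC network had 11 kept genes in both lines and 0 at least 1.5-fold different. MAOA, the gene CDCA7L is known to repress, read 7.55 and 7.80 in A375M, a difference of 0.25, with kept probe sets from -0.013 to 0.25. MYC read 8.74 and 8.86, a difference of 0.12, and MXD1 and MGA, of the MYC network, differed by -0.11 and -0.090. In LM8 the largest differences were those of Mycn (-0.39), Mnt (0.31), Mxd4 (0.30) and Mga (0.29), and kept probe sets of Mycn ran from -0.39 to 0.80. Those of Mnt ran from -0.022 to 0.31 and those of Mga from -0.19 to 0.29. The list medians were 0 in A375M and -0.014 in LM8.

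Germline genes that DNA methylation is known to keep silent were mostly below the array medians. Of 22 listed, 4 of 22 found were kept in A375M and 2 of 20 in LM8. TEX15, already named for its A375M difference of 1.65, was the only 1 at least 1.5-fold higher, and it was known from earlier results when the list was written. RPL10L read 5.34 and 5.59, a difference of 0.25, and its knock-down value was the same to every digit as that of TET2, 5.59, which 122 probe sets of that array shared. STAG3, a meiotic cohesin gene, differed by 0.019, and PIWIL2, of the piRNA pathway, read 5.23 in both arrays. In LM8 Brdt differed by 0.14 and Sohlh2 by -0.065. A median over the kept genes (0.13 in A375M, 0.038 in LM8) rests on 4 and 2 genes, and it was 0 in A375M without the filter.

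UHRF1, DNMT1, HELLS and CDCA7 are made mostly in dividing cells, so the cell cycle lists were set beside them. DNA replication and S-phase genes had 19 of 29 kept genes higher and 10 lower in LM8 (median 0.050), led by Clspn (0.35), Pole (0.29), Rfc3 (0.22) and E2f1 (0.18). In A375M 7 of 30 were higher, 12 lower and 11 identical (median 0), with CDC45 at -0.25, CHAF1B at -0.25, CDC6 at -0.13 and SLBP at 0.13. Over all kept genes 53.8% were higher in LM8. In A375M 29.0% of all kept genes were higher, 40.3% lower and 30.8% identical. G2/M genes had 13 of 19 higher in LM8 (median 0.063, or -0.0037 with probe sets averaged within genes). In A375M 0 of 20 were higher, 18 lower and 2 identical (median -0.079), where 40.3% of all kept genes were lower. MKI67, the proliferation marker gene, read 7.02 and 6.45, a difference of -0.57, with kept probe sets from -0.57 to -0.030, and CENPF, TPX2 and CENPE differed by -0.28, -0.22 and -0.21. In LM8 Aurka differed by -0.22, Cdc20 by 0.18, Bub1b by -0.15 and Kif11 by 0.15, with kept probe sets of Kif11 from -0.32 to 0.15. The G2/M median in A375M stayed negative under all 8 alternatives, from -0.11 to -0.032, and the part of cell cycle genes in the member values was not tested. In bulk RNA, fewer dividing cells and less RNA per dividing cell cannot be told apart. With 1 array a group, neither can be told apart from variation between cultures or arrays.

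**Figure D3:**
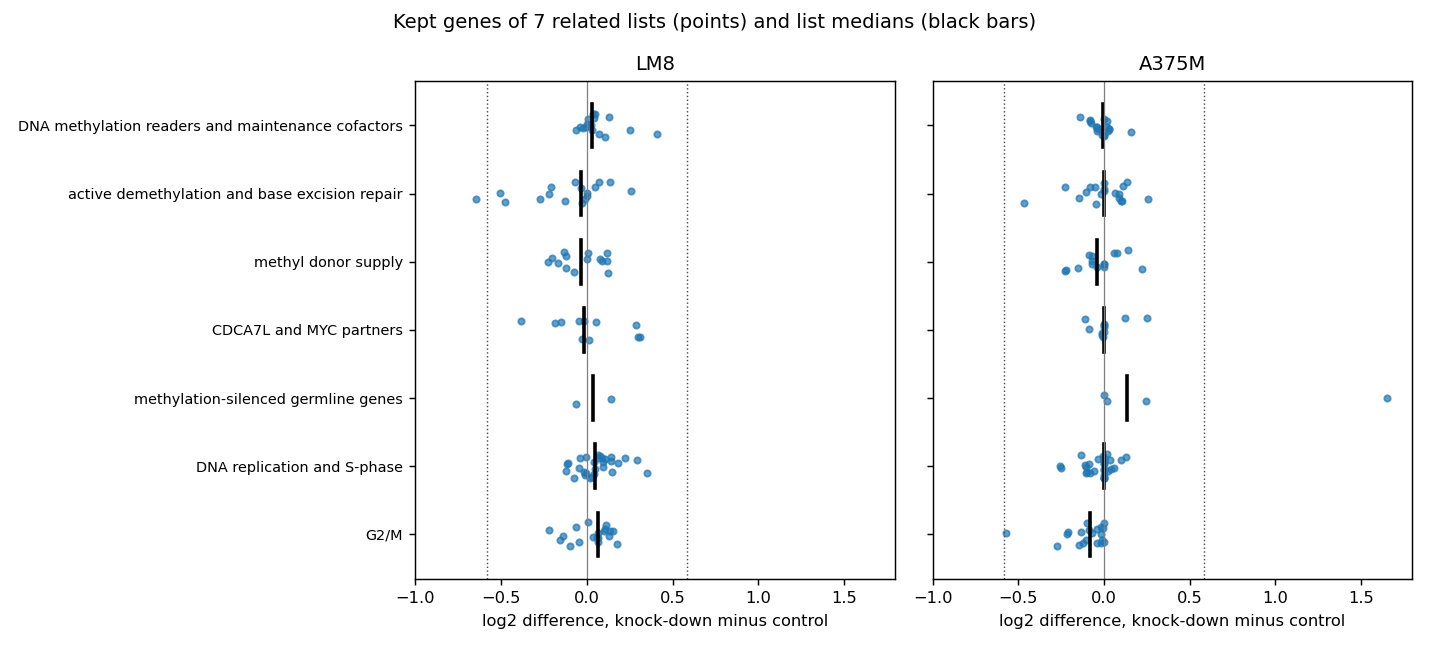
Log2 difference, knock-down minus control, of each kept gene (points) in 7 lists related to DNA methylation or the cell cycle, for LM8 (left) and A375M (right), with the list median as a black bar and dotted lines at 1.5-fold. Points past a dotted line are Gadd45g at -0.65 in LM8 and TEX15 at 1.65 in A375M.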

How the data were processed

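Total RNA of 4 infected lines was hybridised to Affymetrix arrays, 1 array a group, with groups read off the sample titles. The deposited log2 values, 1 for each probe set, were computed by the authors; the submitters' processing notes name RMA, and version, software and whether arrays were processed together are not given in the sources used here. RMA equalises array distributions (sorted values of a line differed by at most 0.075), so a shift of all genes would not be seen. The members and lists were chosen with earlier results of these data known.

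Names came from the platform annotation and, for mouse list members, also from RefSeq synonyms (GRCm38.p6). Of 45037 non-control mouse and 54613 human probe sets, 34945 and 41091 had 1 symbol, 932 and 1801 several and 9160 and 11721 none; only the first were used. A gene took its brightest probe set and was kept if that value exceeded the array's median (the 50th percentile, control probe sets left out) on either array. Named genes were the 10 members, the target, the 3 kept A375M genes nearest CDCA7L in difference, and up to 4 kept genes of each of 7 lists with the largest differences in each line. The 6 marker lists are given in the closing section. Differences were counted at 1.5-fold without a test. The fit over both lines used limma 3.58.1 (R 4.3.3), lmFit and eBayes on the 2 within-line differences. Other values used Python 3.11.15 and statsmodels 0.14.6. On simulated data 100 of 100 genes shifted by 1.5 passed 1.5-fold in each line (11646 LM8 and 13244 A375M genes), and the limma fit recovered 200 of 200 among 8981 genes with 1 false call. For the limma fit, values were drawn with a common SD for all genes of a line. The same log2 shift of 1.5 was added in both lines. Real genes differ in spread and many A375M differences are exactly 0. The simulations therefore check the code and do not give the power on these data. The planned comparison of member proteins, and human promoters, are not analysed here. The number of arrays limits the precision.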

Additional observations from a re-analysis of the deposited data

Results flagged for a closer look

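DNMT3A had opposite differences in the lines, each beyond the median SD between probe sets of a gene: 0.36 in LM8 and -0.12 in A375M, so that the A375M difference was lower by 0.48, a value of -0.48 for A375M minus LM8. With 1 array a group this contrast between lines was not tested. Past the median SD between probe sets lay 47.7% of all kept genes in LM8 and 41.1% in A375M, so passing it is common. The A375M SD takes in many differences of exactly 0, which can make it too small. With the mean of its 5 probe sets Dnmt3a differed by 0.16 in LM8, and another DNMT3A probe set was identical in the A375M arrays.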

How the results depend on the processing

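No paired analysis was possible because each group holds 1 array and the labels carry no replicate numbers; the fit over both lines already takes differences within a line, and leaving out an array leaves no difference. Of 73 values of the main results under the alternatives 66 kept their value or count within the limit used (the median SD between probe sets, or 1.5 times for a count), 7 moved and 0 changed sign past 1.5-fold. Part of this tally was fixed in advance. A filter cannot change the difference of a kept gene, and averaging cannot change a gene with 1 probe set, such as CDCA7L. The tally therefore overstates how stable the results are, and the same holds for that of the other members below. The count of members at least 1.5-fold different in LM8 was 0 with a filter at the 70th percentile, with 32 added and at 2-fold, and in A375M it was 0 without probe sets ending in _x_at or _s_at, where CDCA7L had no value. The CDCA7L difference in A375M was 1.55 with 32 added, and that of the target gene was -1.22 with the mean of its probe sets and -2.21 with 32 added. The median over the members ranged from -0.018 to 0.032 in LM8 and from -0.030 to 0.049 in A375M, where centring moved the median of all kept genes to -0.030 and repeated quantile normalization to 0.019. Among other members 7 of 135 values moved, and among list medians 3 of 111. The fit over both lines called 0 members under every alternative run, including eBayes with a trend, with a lowest adjusted p of 0.943 to 0.9997 in limma, and with arrays centred 1 of the 9 had an unadjusted p under 0.05 (3.81% of all genes). Levels near the array median limit CDCA7L in A375M and Tet3 in LM8.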

Other observations

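The marker lists, differences of knock-down minus control, gave medians of 0.17 over 3 kept melanocyte genes, 0.25 over 5 osteoblast, -0.19 over 2 leukocyte, 0.21 over 1 keratinocyte, -0.042 over 2 endothelial and 0.19 over 5 fibroblast genes in LM8, and of 0.14 over 7, 0.092 over 4, -0.029 over 4, 0 over 1, 0.13 over 3 and 0 over 5 in A375M, in the same order. Cd3e, 1 of the 2 leukocyte genes in LM8, read 5.45 and 5.19 and was kept only through the control array, where it was high. Nothing is therefore read from that median. Of the kept marker genes in both lines, those at least 1.5-fold different were Col3a1, a fibrillar collagen gene of the fibroblast list, which read 6.59 and 8.96 in LM8, a difference of 2.37 or 5.16-fold, and S100b, of the melanocyte list, which read 8.28 and 9.01 in LM8, a difference of 0.73.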
